A study of Mus musculus with 3 samples.

Results

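The 60 genes described here encode translation initiation factors, elongation factors and a few of the proteins that regulate them. They were taken by symbol, as every gene of the filtered-cell table whose name begins with Eif or Eef and a digit. This gave 62 genes, of which Eif2s3x and Eif2s3y, a sex-linked pair, were left out, so that 60 of 14933 genes were described. All 60 are protein-coding in the GENCODE M21 annotation of GRCm38 (mm10) and they lie on 19 chromosomes. 52 of the 60 are also among the 7174 genes that the authors kept for their table of neuronal cells.

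The data are scRNA-seq of tdTomato+ cells sorted from the medial prefrontal cortex (mPFC) of C57Bl6 mice at postnatal day 5 (P5), with 1 library of 10X Chromium 3′ counts for each genotype. The libraries are Tbr1 wild-type (Rbp4cre::tdTomato), Tbr1layer5 heterozygous (Tbr1 f/+, Rbp4cre::tdTomato) and Tbr1layer5 homozygous (Tbr1 f/f, Rbp4cre::tdTomato), all with the same Cre and reporter. Tbr1 encodes a T-box transcription factor of deep-layer cortical neurons, and the study asked what its loss does to layer 5 pyramidal neurons. The Cre is driven by an Rbp4 transgene active in layer 5, where not every neuron expresses Tbr1, and the number of animals behind each library is not given in the sources used here. Without replicate libraries no test between genotypes was possible, and every interval below is a 95% interval that covers counting error only.

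Translation of most mRNAs begins when eIF4E binds the cap, eIF4G and the helicase eIF4A join it, and a small ribosomal subunit carrying eIF1, eIF1A, eIF2, eIF3 and eIF5 scans to the start codon. Elongation then relies on eEF1A, which brings aminoacyl-tRNA to the ribosome, on the eEF1B complex, which recharges eEF1A with GTP, and on eEF2, which moves the ribosome along the mRNA. Neurons switch from eEF1A1 to eEF1A2 as they mature, and mRNAs of several elongation factors belong to the 5′ terminal oligopyrimidine class that is known to be controlled together with ribosomal protein mRNAs.

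Values are unique molecular identifiers (UMIs), the molecules counted per gene, summed over the cells of a class within a library and given as counts per 1000000 UMIs of that class (CPM). The kit counts 3′ ends, so CPM is not divided by transcript length and levels are compared between libraries and cell classes, not read as protein or as molar ratios between genes. Where 3 values follow each other without labels, they stand for the wild-type, then the heterozygous, then the homozygous library. The authors' annotation gives 3 classes of filtered cells, namely typical neuronal cells, which they kept for their own comparison, atypical neuronal cells, and cells left out of their neuronal table, called other cells here. Typical cells numbered 1778, 5357 and 3935, with 3670646, 10418228 and 6074494 UMIs. Atypical cells numbered 304, 107 and 462, and other cells 2873, 1398 and 1182. A gene was counted as higher or lower when its ratio passed 0.32 on the log2 scale in either direction and its mean over the libraries was at least 20 CPM. Ratios of raw UMIs per cell, without the division by total UMIs, are added where they turn the direction of a named gene whose interval was clear of 0. On that scale the median log2 ratio of all genes was −0.34 for homozygous over wild-type, −0.03 for heterozygous over wild-type and −0.32 for homozygous over heterozygous.

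The typical cells of the 3 libraries also differed in several general measures. Without replicate libraries, these differences cannot be told apart from an effect of genotype. Their median UMIs per cell were 1901, 1743 and 1375 and the median share of mitochondrial UMIs was 10.4%, 15.4% and 12.5%. The 98 ribosomal protein genes took 21.6%, 15.8% and 17.0% of their UMIs. The summed level of 7 excitatory markers, of which none was at 0, was 2944, 3618 and 4296 CPM in these cells. Nrgn held 1692, 2062 and 2722 CPM of this excitatory sum and Cnih2 859, 1098 and 1097 CPM. Blood markers, 4 hemoglobin genes of which none was at 0, summed to 344 CPM in wild-type against 44.5 and 85.6 CPM in the mutant libraries, and the endothelial list to 103, 30.2 and 52.0 CPM. The 7 markers of astrocytes and radial glia summed to 6815, 5915 and 6791 CPM, above the 5593, 5431 and 5388 CPM of other cells. Fabp7 held 5713, 4775 and 5647 CPM of that sum, while Aqp4 lay between 31.9 and 41.2 CPM, against 129 to 136 CPM in other cells. In empty droplets, defined below, the same 7 markers summed to 6693, 6302 and 6931 CPM, with Fabp7 at 5752, 5111 and 5855 CPM. Tbr1 itself was counted at 27.5, 30.7 and 22.4 CPM. Cre removes its exons 2 and 3, which lie away from the 3′ end that was counted, so these levels do not check the labels. The libraries shared 37 to 58 cell barcodes in pairs, of 4955, 6862 and 5579 filtered cells.

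Together the 60 genes held 1.20% of the UMIs of typical cells with Tbr1 wild-type (11969 CPM, interval 11858 to 12082), 1.13% with Tbr1 f/+ (11253 CPM, 11189 to 11318) and 1.13% with Tbr1 f/f (11266 CPM, 11181 to 11350). The wild-type library was the highest and the 2 mutant libraries overlapped. The floor of 20 CPM was reached by 44 of the 60 genes, and 13 of them passed 300 CPM. The 16 genes under this floor comprise the 4 eIF2 kinases, the 3 genes listed as eIF4E-binding inhibitors, the eEF2 kinase gene Eef2k, the methyltransferase gene Eef2kmt, Eif5a2, Eif4e3, Eif3j2, Eif2d and the eIF2B subunits Eif2b1, Eif2b2 and Eif2b3. Of these, Eif2ak3, which encodes the eIF2 kinase PERK, had 1, 13 and 9 UMIs in typical cells.

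**Figure D1:**
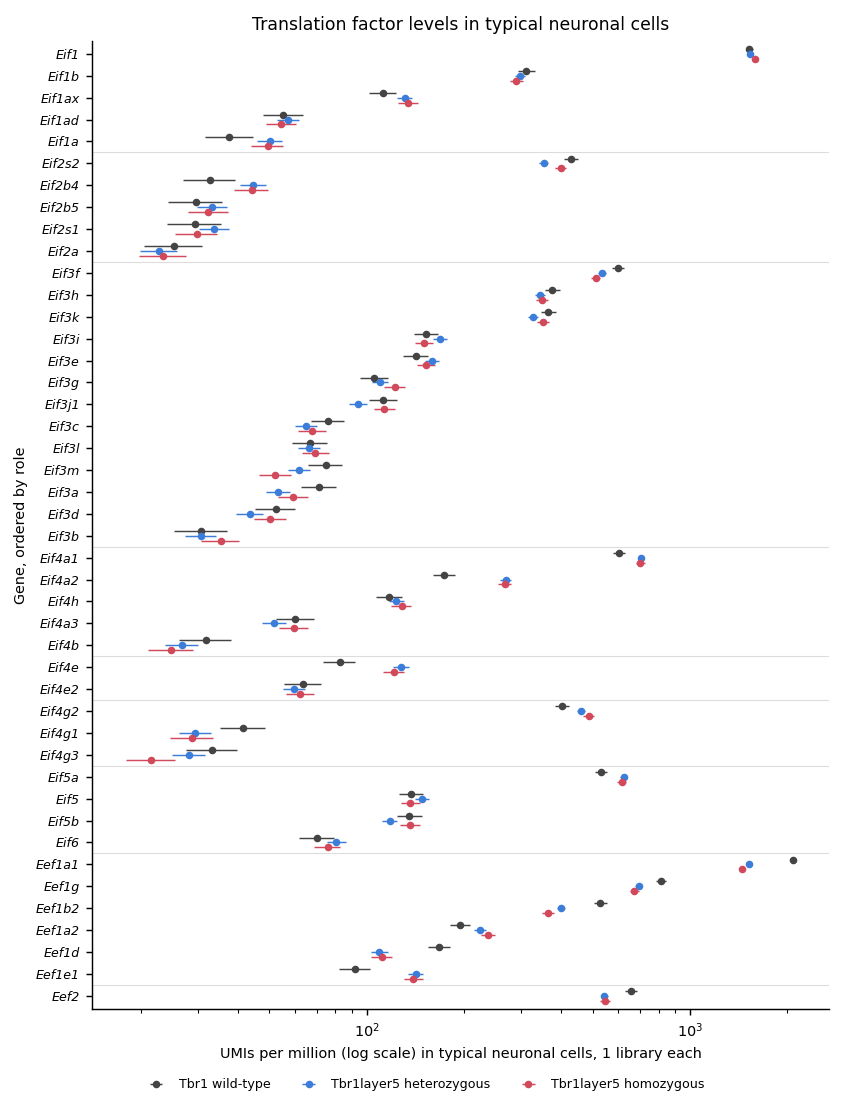
The plot of levels shows the 44 genes above the floor in typical neuronal cells, 1 point per library on a log axis with its 95% counting interval, ordered by role. The wild-type point of Eef1a1 (2079 CPM) lies to the right of both mutant points, and that of Eif4a2 (174 CPM) to the left of both.

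The wild-type library stood apart from both mutant libraries in a minority of these genes, some higher and some lower. In homozygous over wild-type typical cells, 5 of 44 genes were higher and 7 were lower, where 17.2% and 8.5% of the 4261 genes above the same floor were. In heterozygous over wild-type cells 5 were higher and 5 lower, against 17.1% and 9.5% of all genes. The median log2 ratio of the 44 genes was −0.01 for homozygous and −0.04 for heterozygous over wild-type, beside 0.08 and 0.06 over all genes, and single genes ranged from −0.62 to 0.62 and from −0.61 to 0.63. Both sets of ratios use the same wild-type library. Between the 2 mutant libraries, homozygous over heterozygous, none of the 44 genes was higher and 1 was lower, against 4.04% and 2.68% of all genes.

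**Figure D2:**
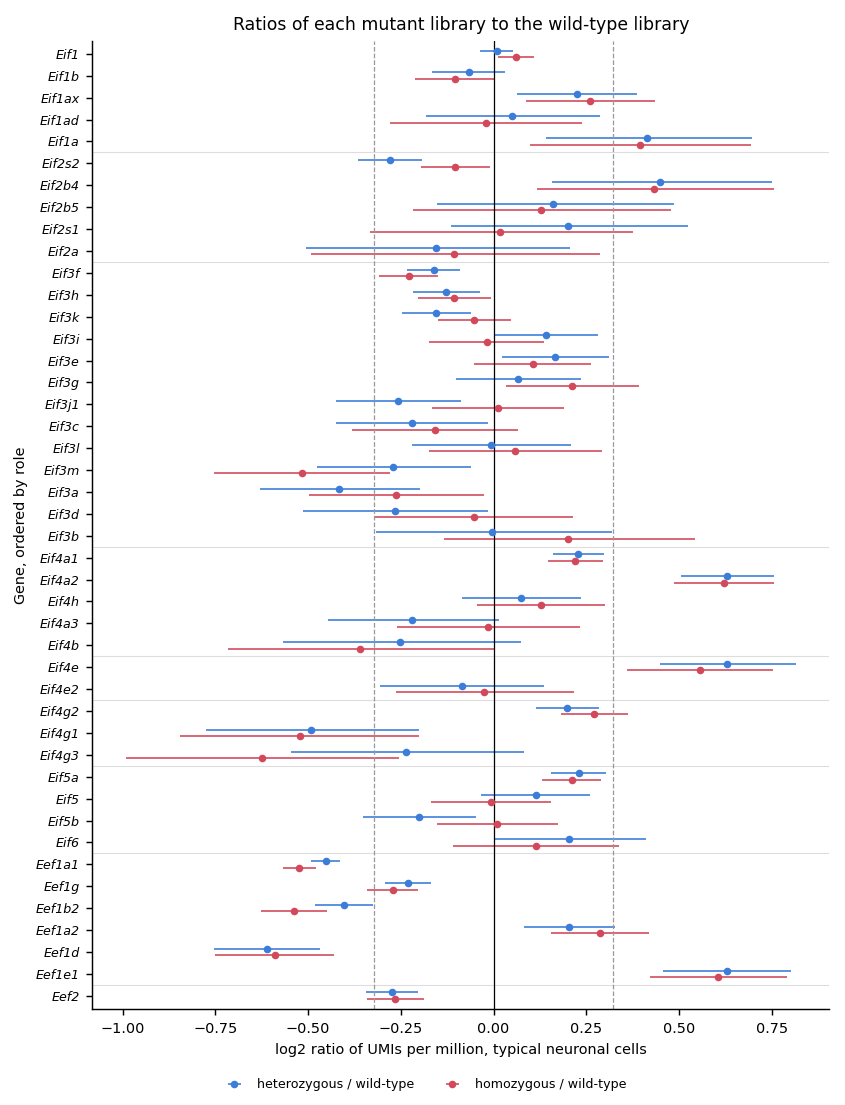
The plot of ratios gives, for the same 44 genes, the log2 ratio of each mutant library to the wild-type library in typical neuronal cells with its 95% counting interval, and dashed lines mark the fold threshold. Eef1a1, Eef1b2 and Eef1d lie left of the dashed line in both ratios, and Eif4a2, Eif4e and Eef1e1 right of it.

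Promoter sequences are shown for 5 genes on both sides of wild-type, chosen after the values were seen. Eef1a1 and Eef1b2 were lower in both mutant libraries, Eef2 was below wild-type inside the threshold, and Eif4a2 and Eef1e1 were higher. They are the 100 bases before the annotated RefSeq start on GRCm38.p6, 5′ to 3′ on the strand of the gene, with matches on either strand to the TATA box letters TATAAA, to the ETS core letters CCGGAAG and to the GC box letters CCGCCC in capitals. The Eef1b2 stretch holds none of them.
Eef1a1 (chr9:78481725-78481824, minus strand): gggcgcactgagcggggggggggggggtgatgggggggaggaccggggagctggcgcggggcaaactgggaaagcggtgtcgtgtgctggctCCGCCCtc
Eef1b2 (chr1:63176731-63176830, plus strand): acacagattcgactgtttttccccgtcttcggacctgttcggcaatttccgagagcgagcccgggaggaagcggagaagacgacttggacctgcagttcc
Eef2 (chr10:81176531-81176630, plus strand): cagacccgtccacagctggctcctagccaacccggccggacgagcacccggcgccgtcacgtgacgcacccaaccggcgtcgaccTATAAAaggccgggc
Eif4a2 (chr16:23107368-23107467, plus strand): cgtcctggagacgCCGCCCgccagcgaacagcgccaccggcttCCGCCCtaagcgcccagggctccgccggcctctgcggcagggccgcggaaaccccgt
Eef1e1 (chr13:38659029-38659128, minus strand): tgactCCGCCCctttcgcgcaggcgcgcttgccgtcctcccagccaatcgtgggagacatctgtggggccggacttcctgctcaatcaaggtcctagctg
Of the 60 genes, 48 had a RefSeq promoter of 300 bases. In that window CCGCCC, the core of a GC box, was found on either strand in 36 of the 48 (75.0%), among them Eef1a1, Eif4a2 and Eef1e1, beside 38.2% of 27025 genes. CCGGAAG, the core bound by ETS factors, was found in 17 (35.4%), among them Eef1b2 outside the stretch shown, beside 9.93%, and TATAAA in 4 (8.33%), among them Eef2, beside 15.7%. The 27025 genes outnumber the 14933 genes of the filtered-cell table from which the 60 were taken, so these backgrounds include genes outside it. Matches of different motifs may overlap, and a match is a description of the letters in this window.

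Among the elongation factors, Eef1a1, Eef1b2 and Eef1d were lower in both mutant libraries and Eef1e1 was higher. Eef1a1, which encodes the general form of the factor that delivers aminoacyl-tRNA, was counted at 2079 CPM in wild-type typical cells, against 1518 CPM with Tbr1 f/+ and 1445 CPM with Tbr1 f/f. Its log2 ratio was −0.52 (−0.57 to −0.48) for homozygous and −0.45 (−0.49 to −0.41) for heterozygous over wild-type. Eef1b2, a nucleotide exchange subunit, stood at 529, 400 and 364 CPM, and its log2 ratio was −0.54 (−0.63 to −0.45) for homozygous and −0.40 (−0.48 to −0.33) for heterozygous over wild-type. The heterozygous ratio was −0.319 without mitochondrial genes in the denominator, just inside the threshold. Eef1d, another exchange subunit, stood at 168, 110 and 111 CPM, with log2 ratios of −0.59 (−0.75 to −0.43) and −0.61 (−0.76 to −0.47). Eef1g, the scaffold subunit of this complex, had the same order at 813, 693 and 673 CPM but stayed inside the threshold. Among cells with 1600 to 2200 UMIs its homozygous over wild-type log2 ratio was −0.39, past the threshold. This window held 1038, 1658 and 897 typical cells, and no interval was computed for ratios within it. Eef2, the translocase, was at 657, 543 and 547 CPM, with log2 ratios of −0.27 (−0.34 to −0.19) and −0.28 (−0.34 to −0.21). Among cells with 1600 to 2200 UMIs both passed the threshold, at −0.355 and −0.375. For each of these 5 genes the counting interval of the wild-type level was clear of both mutant intervals. Summed over the 6 genes of the eEF1 list, the level was 3875, 3086 and 2971 CPM, of which Eef1a1 held 2079, 1518 and 1445 CPM. In either mutant 1 gene of the list was higher and 3 were lower. Of all genes, 17.2% and 8.5% were for homozygous and 17.1% and 9.5% for heterozygous over wild-type. The list has too few genes to set against those shares.

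Of the other eEF1 genes, Eef1a2 stayed inside the threshold and Eef1e1 passed it. Eef1a2, the form of eEF1A that mature neurons and muscle use, was at 195, 224 and 237 CPM, a log2 ratio of 0.29 (0.16 to 0.42) for homozygous over wild-type that was −0.13 on raw UMIs per cell. Among cells with 1600 to 2200 UMIs that ratio was 0.38, past the threshold. Eef1e1, whose product is a component of the multi-aminoacyl-tRNA synthetase complex and not of eEF1 proper, was at 91.8, 142 and 140 CPM, and its log2 ratio was 0.61 (0.42 to 0.79) for homozygous and 0.63 (0.46 to 0.80) for heterozygous over wild-type. The mutant libraries overlapped each other for either gene. Eef1a1 and Eif1 have processed copies in the genome, and Eif3j1 has the near-identical Eif3j2, so the division of reads among copies is uncertain.

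In the initiation pathway, Eif4a2 and Eif4e were higher in both mutant libraries. Eif4a2, which encodes a form of the eIF4A helicase that is abundant in brain, was counted at 174, 269 and 267 CPM in typical cells, with log2 ratios of 0.62 (0.49 to 0.76) for homozygous and 0.63 (0.51 to 0.76) for heterozygous over wild-type. Its paralog Eif4a1 was at 603, 706 and 702 CPM, a smaller log2 ratio of 0.22 (0.15 to 0.30) in homozygous that was −0.20 on raw UMIs per cell. Eif4e, the cap-binding protein itself, was at 82.5, 128 and 121 CPM, with log2 ratios of 0.56 (0.36 to 0.75) and 0.63 (0.45 to 0.82). Eif4e2, a homolog known for repressing initiation, was at 63.5, 59.8 and 62.4 CPM and overlapped across the 3 libraries. Eif4e3 had 11, 43 and 19 UMIs and was not separable at this depth. Eif4b, a cofactor of the helicase, was at 31.9, 26.8 and 24.9 CPM, a log2 ratio of −0.36 (−0.72 to 0.00) in homozygous cells whose interval reached 0. In cells thinned to 1000 UMIs its ratio was −0.022 for homozygous and −0.016 for heterozygous over wild-type.

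Of the 3 eIF4G scaffolds, which bind eIF3, 2 were lower in homozygous and 1 in heterozygous over wild-type, against 8.5% and 9.5% of all genes, and none was higher, against 17.2% and 17.1%. These are too few genes to set against those shares. Their summed level, mostly Eif4g2, was 477, 519 and 536 CPM. The log2 ratio of the sum was 0.17 (0.08 to 0.25) for homozygous and 0.12 (0.04 to 0.20) for heterozygous over wild-type. Eif4g1, the main scaffold of cap-dependent initiation, was at 41.4, 29.5 and 28.8 CPM in typical cells, a log2 ratio of −0.52 (−0.85 to −0.20) for homozygous and −0.49 (−0.78 to −0.20) for heterozygous over wild-type. Eif4g3 was at 33.2, 28.2 and 21.6 CPM, a log2 ratio of −0.62 (−0.99 to −0.26) for homozygous over wild-type, and it was also the gene that was lower in homozygous than in heterozygous cells, at −0.39 (−0.70 to −0.09). Both signs turned among cells with 1600 to 2200 UMIs, where its log2 ratio was 0.11 for homozygous over wild-type and 0.08 over heterozygous. The window holds only part of the cells and these ratios have no interval, so the turn may lie within counting error. Eif4g2, a related scaffold that does not bind eIF4E, stayed inside the threshold at 402, 461 and 486 CPM, with 0.27 (0.18 to 0.36) in homozygous over wild-type, or −0.15 on raw UMIs per cell, where homozygous over heterozygous was −0.26. Among cells with 1600 to 2200 UMIs the former was 0.50.

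In typical cells the subunits and partners of the scanning complex mostly stayed inside the threshold. Of the 13 eIF3 subunits above the floor, 1 was lower in homozygous over wild-type cells and 1 in heterozygous, near the 8.5% and 9.5% of all genes, and none was higher, against 17.2% and 17.1%. The gene lower in homozygous was Eif3m at 74.7, 61.9 and 52.2 CPM, a log2 ratio of −0.52 (−0.75 to −0.28) in homozygous. The gene lower in heterozygous was Eif3a, the largest subunit, at 71.1, 53.3 and 59.3 CPM, with −0.42 (−0.63 to −0.20) in heterozygous. In other cells, 8 of 13 eIF3 subunits were lower in homozygous and 9 in heterozygous over wild-type, against 20.1% and 38.9% of all genes, with median log2 ratios of −0.34 and −0.40. The most counted subunits of typical cells were Eif3f at 598, 535 and 510.5 CPM, Eif3h at 375, 344 and 349 CPM and Eif3k at 364, 327 and 351 CPM, and for Eif3k the wild-type and homozygous intervals overlapped and homozygous over heterozygous was −0.23 on raw UMIs per cell. Eif1, which guards start codon choice and was the most counted initiation factor, was at 1525, 1533 and 1590 CPM, with homozygous over wild-type at −0.36 and over heterozygous at −0.28 on raw UMIs per cell, and its paralog Eif1b at 312, 298 and 290 CPM. Eif1a, a gene of the start complex, was higher in both mutants at 37.6, 50.1 and 49.4 CPM, a log2 ratio of 0.39 (0.10 to 0.70) for homozygous, −0.03 on raw UMIs per cell, and 0.41 (0.14 to 0.70) for heterozygous over wild-type. The homozygous ratio did not pass the threshold in cells thinned to 1000 UMIs (0.18) or with atypical cells included. Reads of Eif1a and its X-linked paralog Eif1ax can be hard to tell apart.

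Eif2b4, a subunit of the exchange factor that recharges eIF2, was at 32.7, 44.6 and 44.1 CPM in typical cells, log2 ratios of 0.45 (0.16 to 0.75) for heterozygous and 0.43 (0.12 to 0.76) for homozygous. The list of eIF2 and its exchange factor has 5 genes above the floor, among them Eif2a, which encodes a separate factor. Eif2b4 was the 1 gene of these 5 that was higher in either mutant, against 17.2% and 17.1% of all genes, and none was lower, against 8.5% and 9.5%. Eif2s2, the beta subunit of eIF2, was at 428, 353 and 399 CPM, with the heterozygous library below both others in CPM and homozygous over heterozygous at −0.16 on raw UMIs per cell. Eif5a, whose product carries the hypusine residue and helps ribosomes through difficult peptide bonds, was at 532, 623 and 615 CPM, or −0.21 for homozygous over wild-type on raw UMIs per cell. No gene of the 4 above the floor in the eIF5 and eIF6 list passed the threshold, too few genes to set against those shares. Eif5a2 had 25, 59 and 35 UMIs, or 6.81, 5.66 and 5.76 CPM.

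Between the mutant libraries the differences were smaller. Of the 5 highest log2 ratios of homozygous over heterozygous, Eif3j1 had 0.27 (0.13 to 0.41) at 113 against 94.2 CPM and Eif5b, the factor that joins the ribosomal subunits, 0.21 (0.08 to 0.34) at 136 against 118 CPM. Eif4a3, a subunit of the exon junction complex despite its name, had 0.20 (0.01 to 0.40), and the intervals of Eif3d and Eif3b reached 0. On raw UMIs per cell Eif3j1, Eif5b and Eif4a3 turned to −0.07, −0.12 and −0.13. Of the 5 lowest besides Eif4g3, the log2 ratio was −0.25 (−0.45 to −0.05) for Eif3m, −0.16 (−0.28 to −0.05) for Eif3i and −0.14 (−0.21 to −0.06) for Eef1b2, and the interval of Eif2s1 reached 0.

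Raw UMIs per cell move every gene by the same amount, so the size of a ratio alone sets whether its sign turns. On that scale the homozygous over wild-type log2 ratio was −0.94 for Eef1a1, 0.20 for Eif4a2, 0.14 for Eif4e and 0.19 for Eef1e1, and no gene was counted as higher, beside 1.01% of all genes. Over the 10 other alternatives the homozygous over wild-type log2 ratio lay between −0.58 and −0.49 for Eef1a1, between −0.65 and −0.55 for Eef1d, between 0.57 and 0.66 for Eif4a2 and between 0.50 and 0.59 for Eif4e. Without mitochondrial and ribosomal protein genes in the denominator, Eef1a1 had −0.58 and Eif4a2 0.57.

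The libraries also differed in these genes outside the typical cells. In barcodes with at least 100 and under 500 UMIs, taken as empty droplets with free RNA, Eef1a1 was at 2084, 1527 and 1462 CPM. Eif4a2 was at 174, 259 and 247 CPM there, Eif4e at 79.5, 130 and 123 CPM, Eef1e1 at 83.0, 140 and 122 CPM and Eef1d at 208, 147 and 138 CPM. For each of these 5 genes the wild-type interval was clear of both mutant intervals, in the same direction as in typical cells. In other cells Eef1a1 was at 2394, 1431 and 1356 CPM and Eif4a2 at 200, 300 and 272 CPM. The excitatory marker sum of other cells was 964, 2682 and 1821 CPM, and its part in the ratios of other cells was not tested. Of the 44 genes above the floor in empty droplets, 6 were higher and 5 lower in homozygous over wild-type, against 20.3% and 7.52% of all genes, and 8 were higher and 5 lower in heterozygous, against 27.1% and 8.55%, while between the mutants 0 were higher and 0 lower, against 2.79% and 5.04%. Of the 47 genes above it in other cells, 3 were higher and 17 lower in homozygous over wild-type, against 16.6% and 20.1% of all genes, 3 were higher and 21 lower in heterozygous, against 16.4% and 38.9%, and 7 were higher and 0 lower in homozygous over heterozygous, against 28.2% and 8.45%. In the small atypical class, 3 of 44 were higher and 19 lower in homozygous over wild-type, against 20.5% and 27.9% of all genes. The counts were 5 and 25 in heterozygous over wild-type, against 24.6% and 36.6%, and 12 and 8 in homozygous over heterozygous, against 30.1% and 24.4%.

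In each library the levels in typical cells lay close to those of its empty droplets. Of the 44 genes, 41, 40 and 40 were inside the threshold around the empty-droplet level, where 74.7%, 82.5% and 82.2% of all genes were. The 3 genes outside it in the wild-type library were Eif4g3 at 0.58, Eif4g1 at 0.53 and Eif3a at 0.49 on the log2 scale. In the heterozygous library Eif4g3 was above it at 0.40, and Eif2s1 (−0.43), Eef1d (−0.42) and Eif3c (−0.37) were below. In the homozygous library Eif3a (0.495) and Eif4g3 (0.42) were above it, and Eif2s1 (−0.51) and Eif3m (−0.35) below. Eif4g1 was at 28.6, 31.0 and 28.5 CPM in empty droplets, so its homozygous over wild-type log2 ratio was −0.01 (−0.21 to 0.19) there against −0.52 in typical cells. Its wild-type typical cells stood above their own empty droplets by 0.53 (0.26 to 0.80) on the log2 scale, and the mutant typical cells by −0.07 and 0.02. The empty-droplet profile was also subtracted at 22.5%, 12.4% and 15.3% of the UMIs. These are upper limits, the largest shares that the mural marker list allows, and the lowest among 7 lists of other cell types. The counts were then 5 higher and 7 lower in homozygous, against 17.5% and 10.6% of all genes, and 5 and 5 in heterozygous, against 16.5% and 12%. With 1 library per genotype, genotype and library preparation cannot be told apart, and the part of free RNA, of ribosomal protein share and of blood in these values was not tested.

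**Figure D3:**
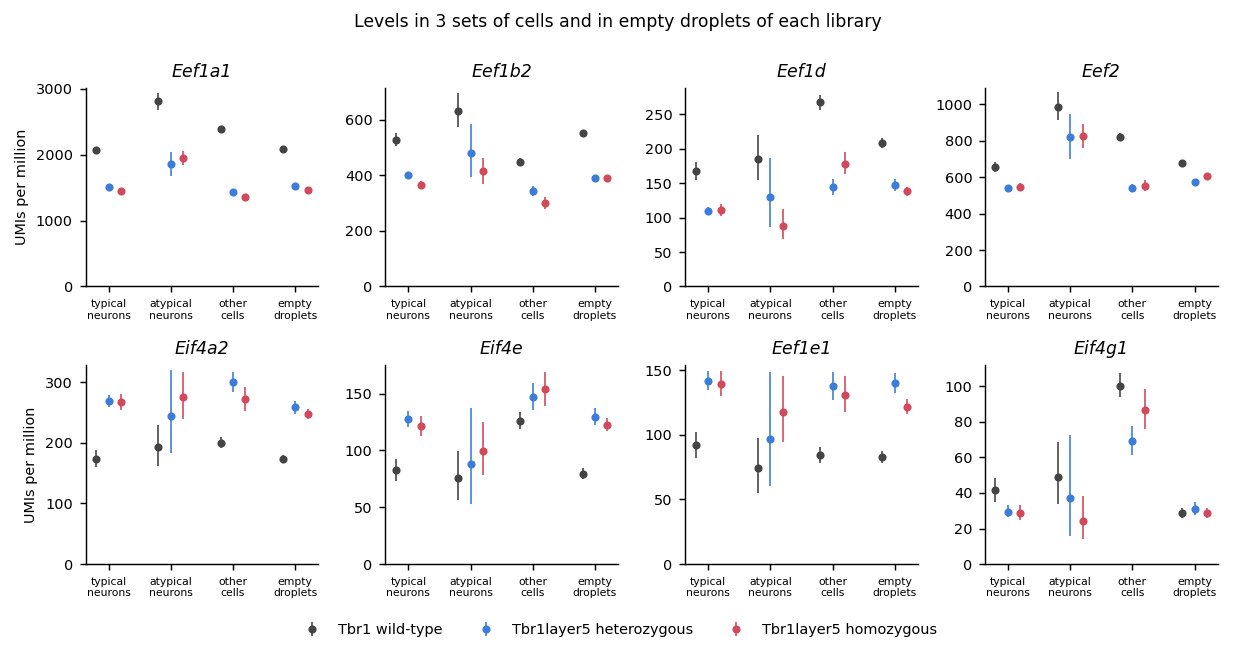
The plot by compartment gives CPM of 8 genes in typical neurons, atypical neurons, other cells and empty droplets of the 3 libraries with 95% counting intervals. The wild-type point is highest in all 4 compartments for Eef1a1 and Eef1b2 and lowest for Eif4a2, Eif4e and Eef1e1, and the 3 libraries overlap in empty droplets for Eif4g1.

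Shares within a pair of paralogs do not depend on the denominator of a library. Eef1a2 made up 8.56% (7.97 to 9.18%) of the UMIs of Eef1a1 and Eef1a2 in wild-type typical cells, against 12.9% (12.4 to 13.4%) with Tbr1 f/+ and 14.1% (13.4 to 14.8%) with Tbr1 f/f. In empty droplets the shares were 7.63%, 12.7% and 13.2%, and in other cells 4.02%, 11.4% and 9.78%. The wild-type share was the lowest in every compartment. Eif4a2 made up 22.4% (20.9 to 24.0%) of the UMIs of Eif4a1 and Eif4a2 in wild-type, 27.6% (26.7 to 28.5%) in heterozygous and 27.6% (26.4 to 28.7%) in homozygous typical cells. Eif4e made up 55.4% (51.1 to 59.6%) of the cap-binding set in wild-type and 66.7% (64.5 to 68.7%) and 64.9% (62.1 to 67.7%) in the mutants, and empty droplets gave 54.0%, 65.5% and 66.5%. Eif4g1 made up 8.68% (7.40 to 10.1%) of the eIF4G set in wild-type, 5.68% (5.08 to 6.33%) in heterozygous and 5.37% (4.62 to 6.20%) in homozygous typical cells, beside 7.36%, 6.76% and 6.15% in empty droplets. The share of Eif1b in Eif1 and Eif1b was 17.0%, 16.3% and 15.4% in typical cells and 16.5%, 18.0% and 13.4% in atypical cells.

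**Figure D4:**
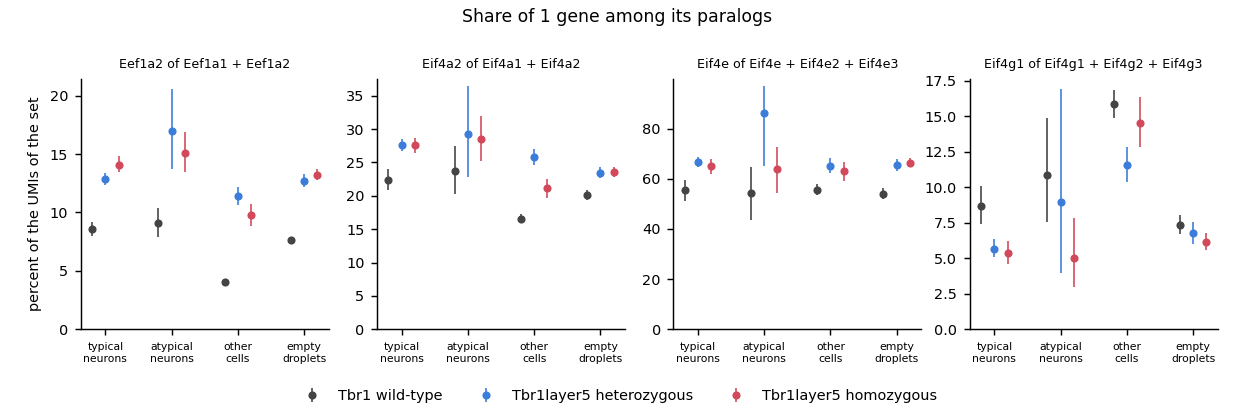
The plot of paralog shares gives the percent of UMIs of a paralog set that fell on 1 gene, by compartment and library, with exact binomial 95% intervals. The Eef1a2 share of wild-type (8.56% in typical neurons) lies below both mutants in each compartment, and the Eif4g1 share of wild-type (8.68% there) lies above both by its point, with an interval that overlaps at least 1 mutant interval outside typical neurons.

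The authors set the atypical cells apart as clusters low in excitatory markers, and they also described them by high levels of housekeeping genes, among which translation factors are often counted. The clusters were made from the table that holds 52 of the 60 genes, so the differences are given without a test. They carried a higher level of the 5 striatal markers found, of 6 listed, than typical cells (247 to 440 CPM against 28.4 to 44.8 CPM), and the excitatory sum was 1512 to 3302 CPM against 2944 to 4296 CPM. Blood markers summed to 345, 60.1 and 997 CPM in atypical cells. The part of striatal cells and of blood in the atypical values was not tested. Eif4b, Eef1a2 and Eef2 had the highest mean ratios. Eef2 was at 987, 818 and 825 CPM in atypical cells, above the 543 to 657 CPM of typical cells in all libraries, with a mean log2 ratio of 0.59 ± 0.003 (SD, n = 3). The SD describes only how close the 3 libraries lay. The counting intervals of Eef2 were far wider, at 0.46 to 0.71, 0.37 to 0.81 and 0.47 to 0.72. Eef1a2 was higher by 0.61 ± 0.13 and Eif4b by 0.74 ± 0.22, both without overlap, although Eif4b in the heterozygous library had 10 UMIs. The intervals of Eif4b reached 0 in both mutant libraries. Eef1a1 was higher within each library by 0.39 ± 0.08 and Eif3m by 0.43 ± 0.01, but the class ranges overlapped. Eif3m had 18 UMIs in heterozygous atypical cells, and its heterozygous (−0.34 to 1.10) and homozygous (−0.03 to 0.85) intervals reached 0. Of 44 genes, 5 were higher without overlap and 2 lower, against 8.25% and 16.7% of 4278 genes, and 13 were higher and 8 lower within each library, against 17.2% and 28.1%. Without the wild-type library, 11 were higher and 14 lower without overlap, against 18.5% and 36.0% of all genes, without the heterozygous 13 and 7 (19.1% and 25.0%) and without the homozygous 8 and 4 (17.1% and 24.2%), where fewer libraries make overlap rarer.

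Genes lower in atypical cells included Eif3j1 at −0.40 ± 0.16, Eef1e1 at −0.37 ± 0.16 and Eif4e at −0.32 ± 0.21 (SD, n = 3), each lower within all 3 libraries but with overlapping ranges. The counting intervals reached 0 in every library for Eef1e1 and Eif4e, and in both mutant libraries for Eif3j1. Eif5a and Eif1 were lower without overlap, at −0.30 ± 0.16 and −0.09 ± 0.03. The interval of Eif5a reached 0 in wild-type, and that of Eif1 in every library. The lowest mean ratio, Eif4e2, rested on 3 UMIs in the heterozygous atypical cells, where the log2 ratio was −2.11 (−4.39 to −0.55), against −0.07 and −0.18 in the other libraries. Eif1a had 5 UMIs there and changed sign between libraries.

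The other cells are a mixture that held blood markers at 4902 to 9517 CPM, microglial markers at 1438 to 1611 CPM, endothelial markers at 687 to 1943 CPM, and inhibitory markers at 1475 to 3083 CPM. Excitatory markers summed to 964, 2682 and 1821 CPM in them, and cycling markers to 543, 243 and 274 CPM. The part of each cell type in the values below was not tested. Eif4g1, Eif4g3, Eif3a and Eif3c had the highest mean ratios among the genes that also passed the floor in typical cells. Eif4g1 was at 100.4, 69.2 and 86.8 CPM, with no overlap with the 28.8 to 41.4 CPM of typical cells and a mean log2 ratio of 1.37 ± 0.20 (SD, n = 3). Eif4g3 followed at 0.99 ± 0.22, then Eif3a at 0.86 ± 0.14 and Eif3c at 0.78 ± 0.19. Eif4ebp1, an inhibitor that sequesters eIF4E, had 0.92 ± 0.18 at 24.1 to 31.9 CPM. It lay under the floor in typical cells, at 15.0, 14.7 and 15.5 CPM, and was included only through its level in other cells. Of 47 genes, 22 were higher without overlap and 3 lower, beside 48.5% and 15.0% of 5184 genes, and 25 were higher and 9 lower within each library, beside 57.4% and 25.0%, so the counts lay near the background or under it. Eif4ebp1, Eif2b1 and Eif2b2 lay under the floor in typical cells and were included through other cells, so their place among the 22 follows from the filter. The 5184 genes were filtered in the same way. Without the wild-type library 11 were lower without overlap, beside 24.5%. The median log2 ratio was 0.37, beside 0.29 over all genes.

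Few genes were lower in these cells. Eef1a2 was at 100.3, 184 and 147 CPM, below typical cells without overlap, a mean log2 ratio of −0.65 ± 0.34 (SD, n = 3). Eif1b and Eif1 were also lower without overlap, at −0.12 ± 0.03 and −0.08 ± 0.03. Eef1b2 at −0.25 ± 0.03, Eef1g at −0.18 ± 0.05 and Eif5a at −0.11 ± 0.08 were lower within each library while the ranges overlapped. The wild-type interval of Eif5a reached 0. Eef1a1 differed in sign, at 0.20 in wild-type against −0.09 and −0.09 in the mutant libraries.

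**Figure D5:**
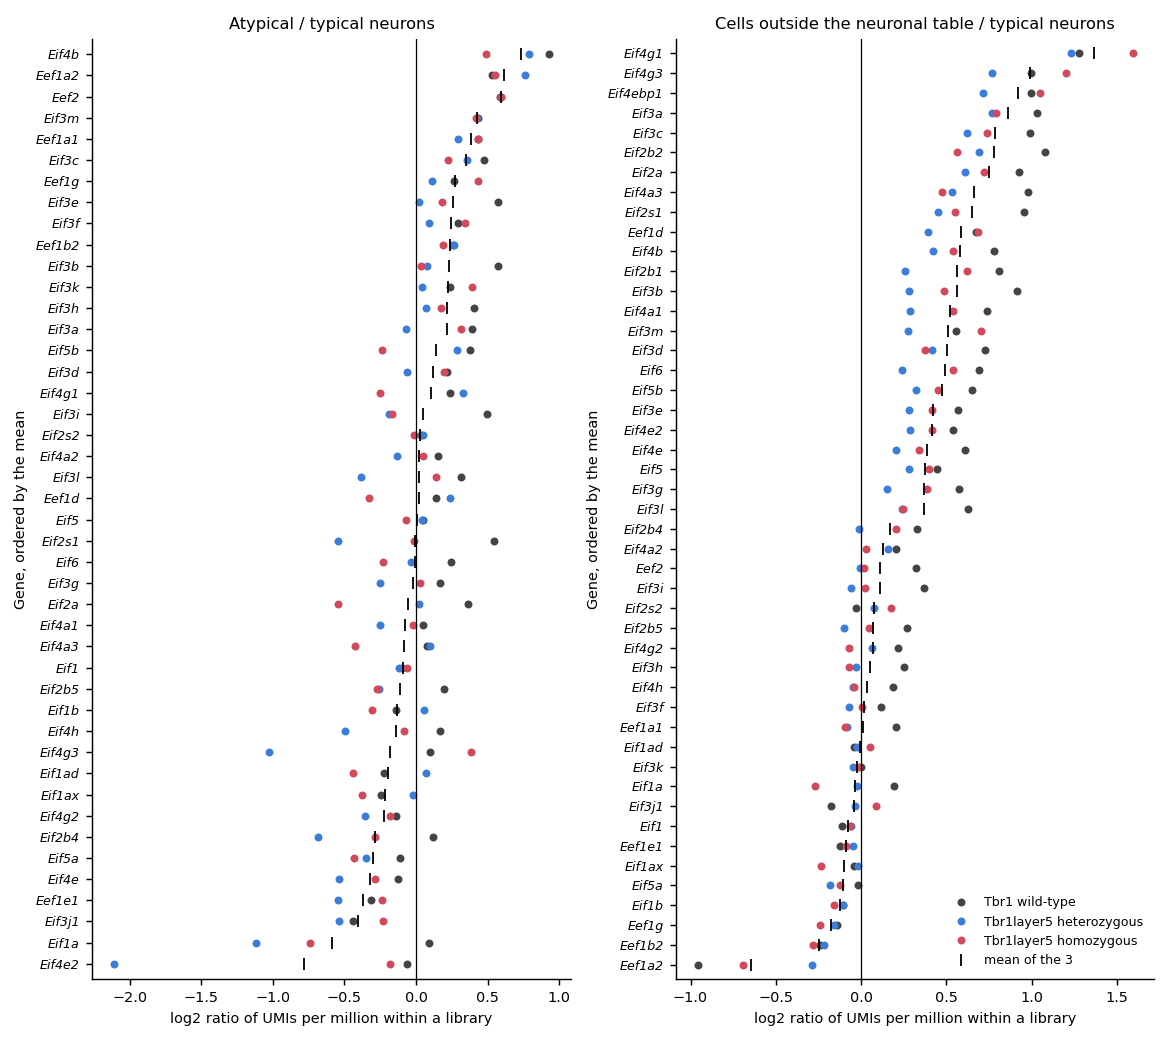
The plot of classes gives the log2 ratio of CPM within each library for atypical over typical neurons (44 genes) and for other cells over typical neurons (47 genes), 1 point per library and a bar at the mean. Eif4b, Eef1a2 and Eef2 head the former and Eif4g1, Eif4g3 and Eif4ebp1 the latter, where Eef1a2 is lowest. Eif4ebp1 is under the floor in typical neurons and was included through its level in other cells.

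Of 34 other genes of translation listed beside these factors, 33 were found by name and 24 were above the floor, of which 7 were higher and 1 lower in homozygous over wild-type typical cells, against 17.2% and 8.5% of all genes. In heterozygous over wild-type cells 6 were higher and 4 lower, against 17.1% and 9.5%. Tpt1, which encodes the translationally controlled tumor protein, was at 1162, 860 and 798 CPM. Naca, a chaperone subunit at the ribosome exit, was at 742, 583 and 594 CPM. Rheb, the GTPase that activates mTORC1, was higher in both mutants at 185, 278 and 261 CPM, Mcts1, a reinitiation factor, at 98.4, 142 and 143 CPM, and Habp4 at 50.7, 81.7 and 76.2 CPM. Abcf1 at 66.2, 57.9 and 53.5 CPM and Ddx3x at 39.8, 30.5 and 33.4 CPM complete the named genes.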

How the data were processed

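Per the labels and the methods of the study, 10X Chromium Single Cell 3′ v2 libraries were aligned to mm10 and counted with Cell Ranger 2.0.1. The deposited matrices and the table of filtered cells hold raw UMI counts, the latter after the authors kept cells with at most 30% mitochondrial UMIs, 500 to 10000 UMIs in all and 500 to 3000 genes. The mitochondrial share is deposited as a fraction. The neuronal table is deposited as natural log values, and only its gene names were read. A scaled table was not used.

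Counts were summed per library and class (typical, atypical, other) and divided by the total (CPM). Sums carry exact Poisson, ratios exact conditional binomial (Clopper-Pearson) and shares exact binomial intervals. Calls need a log2 ratio of 0.32 at a mean of 20 CPM. With 1 library per genotype no test was run. The steps were tested on simulated data. Named genes were those above 300 CPM, the 5 highest and 5 lowest ratios of each comparison, paralog sets, Tbr1, and the 3 highest and 3 lowest of the other translation genes, while Eif2ak3 and Eif3e were chosen after their values were seen. Members and lists were chosen with earlier results of these data known. No doublet caller was run, and removal of the top 5% of cells by UMIs stands in for it. Python 3.11.15, edgeR 4.0.16 and DESeq2 1.42.0 (scaling factors only) were used.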

Additional observations from a re-analysis of the deposited data

How the results depend on the processing

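Another scaling (edgeR TMM, DESeq2 size factors, denominators without mitochondrial or ribosomal protein genes), the mean over cells, and subtraction of empty-droplet RNA left the genotype counts within 1.5 times. The medians stayed between the median lower and the median upper bound of the single-gene intervals. For homozygous and heterozygous over wild-type these bounds were −0.184 to 0.215 and −0.219 to 0.172, which is wide for a median of 44 genes. Some medians changed sign inside them, such as to 0.028 and 0.077 without mitochondrial genes in the denominator. No paired analysis was possible because each genotype has 1 library. With mean raw UMIs per cell, where the homozygous library has fewer UMIs, the medians were −0.43 (homozygous over wild-type) and −0.34 (homozygous over heterozygous), 0 genes were higher (1.01% of all genes) and 28 lower (52.7%) in homozygous over wild-type, 12 were lower in heterozygous over wild-type (15.3%) and 24 in homozygous over heterozygous (49.8%). Reversals were counted for named genes whose main interval was clear of 0. Under it the homozygous over wild-type log2 ratio reversed for Eef1a2 (−0.13), Eif1 (−0.36), Eif1a (−0.026), Eif4a1 (−0.20), Eif4g2 (−0.15) and Eif5a (−0.21), and the homozygous over heterozygous ratio for Eif1 (−0.28), Eif2s2 (−0.16), Eif3j1 (−0.065), Eif3k (−0.23), Eif4a3 (−0.13), Eif4g2 (−0.26) and Eif5b (−0.12). Ratios with an interval that reached 0, such as that of Eif3b for homozygous over wild-type (−0.22), also turned. Among cells with 1600 to 2200 UMIs, Eif4g3 reversed (0.11 for homozygous over wild-type, 0.078 over heterozygous), 8 genes were higher in homozygous (22.9% of all genes) and 8 lower in heterozygous over wild-type (12%), and 1 was higher and 2 lower in homozygous over heterozygous (9.64% and 8.35%). The cause was not tested. With atypical cells included, 8 were lower in heterozygous over wild-type (11.0%). With thinning to 1000 UMIs, 1 of 45 was higher in homozygous over heterozygous (5.04%).

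A floor of 100 CPM left 26 genes, of which 3 were higher and 3 lower in homozygous (13.8% and 8.57% of all genes) and 3 and 3 in heterozygous over wild-type (13.5% and 11.3%), and 0 lower in homozygous over heterozygous (1.21%). Without a floor, of 59 genes 8 were higher in homozygous over wild-type (21%), and 2 higher and 3 lower in homozygous over heterozygous (15.9% and 12.5%). At 1.5-fold 2 were higher and 2 lower in homozygous (2.96% and 1.95%), 3 and 1 in heterozygous over wild-type (3.59% and 2.39%), and 0 lower in homozygous over heterozygous (0.469%).

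For atypical over typical cells without mitochondrial genes in the denominator, 9 genes were higher and 1 lower without overlap (9.7% and 13.9% of all genes), and without ribosomal protein genes as well 8 and 3 of 48 (12% and 11.6%). At a floor of 100 CPM 3 of 24 were higher and 2 lower (7.45% and 20.5%). By the mean over cells 1 was lower (15.8%), and after thinning 4 (14.6%). Leaving out 1 library gave 8 to 13 higher (17.1% to 19.1%) and 4 to 14 lower (24.2% to 36.0%), most lower without the wild-type library. For other cells over typical cells, the denominator without mitochondrial and ribosomal protein genes gave a median of 0.205 (0.185 over all genes) and 8 of 51 lower (20.4%), and a floor of 100 CPM a median of 0.041 (−0.058) and 5 of 26 higher (27.7%). Leaving out 1 library gave 3 to 11 lower (18.1% to 24.5%), 11 without the wild-type library.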

Other observations

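Among the 60 genes, 9 encode mRNAs of the textbook 5′ terminal oligopyrimidine class (Eef1a1, Eef1b2, Eef1d, Eef1g, Eef2, Eif3e, Eif3f, Eif3h and Eif4b). This list was written after the values were seen and no test was made on it. Their median log2 ratio in typical cells was −0.27 for homozygous and −0.25 for heterozygous over wild-type, beside 0.02 and 0.05 for the 35 other genes above the floor. Of the 9, 4 and 3 were lower past the threshold and none was higher. Of the 35, 3 and 2 were lower and 5 and 5 higher. Of all genes 8.5% and 9.5% were lower and 17.2% and 17.1% higher. Eif3e went the other way, at 142, 159 and 153 CPM. Its log2 ratio was 0.17 (0.02 to 0.31) for heterozygous and 0.11 (−0.05 to 0.26) for homozygous over wild-type, where the latter interval reached 0. In empty droplets the medians of the 9 were −0.21 and −0.26, beside 0.04 and 0.14 for the 35. In other cells they were −0.57 and −0.41, beside −0.07 and −0.20, and in atypical cells −0.33 and −0.39, beside −0.14 and −0.30. The summed level of 98 ribosomal protein genes had log2 ratios of −0.35 and −0.45 in typical cells, −0.35 and −0.53 in empty droplets and −0.29 and −0.27 in other cells. Between the mutant libraries, homozygous over heterozygous, the median of the 9 genes was −0.06 in typical cells and the ribosomal protein sum was 0.10.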
